A study of Mus musculus with 4 samples.

Results

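The proteasome is the protease complex that degrades ubiquitin-tagged proteins. Its genes were followed here as a module of 43 genes, out of 19938 genes that the array measured with probe sets of a single gene. Members were the genes whose platform symbol is Psma to Psmg followed by a number. The interferon-inducible Psmb8, Psmb9, Psmb10, Psme1 and Psme2 were left out by name. The rule itself reads only symbols and uses no measured value. All 43 symbols of this form in the RefSeq table used here were measured.

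Macrophages had been grown from marrow of tibias and fibulas of C57BL/6N mice with 10 ng/mL M-CSF until harvest on day 9. M1 macrophages were stimulated for 48 h with 10 ng/mL interferon-γ and M2 macrophages for 48 h with 20 ng/mL interleukin-4, so no unstimulated cells are in the comparison. Interleukin-1α (IL-1α), an inflammatory cytokine, was given at 10 ng/mL for 24 h or replaced by vehicle, with 1 array for each of the 4 combinations. The design asks how the phenotypes differ in their response to IL-1α. No value therefore has a standard deviation, and whether the arrays stem from different mice or cultures is not stated in the labels.

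The complete proteasome consists of a barrel, the 20S core, capped by the 19S regulatory particle. The core stacks rings of α subunits, which gate the entrance, on rings of β subunits, of which Psmb5, Psmb6 and Psmb7 carry the proteolytic sites. The 19S particle recognises ubiquitin chains, removes them and unfolds the substrate with a ring of ATPases. Dedicated chaperones assemble both parts. In macrophages, interferon-γ is known to induce an alternative set of catalytic subunits, the immunoproteasome, which is geared to peptides for MHC class I presentation.

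Levels are given as log2 signals after RMA, the usual normalisation of these arrays, and differences as log2 differences with folds named as such. Genes counted as measured above the floor reached 7.617, the median signal of all genes, on at least 1 array. Of the 43 members, 41 reached it on all 4 arrays and 2 on none. The 2 below it were Psma8, an α subunit known from testis (6.21 on both M1 arrays, 6.40 and 6.62 on the M2 arrays with vehicle and IL-1α), and Psmb11, the β subunit of thymic epithelium (6.38 to 6.64). They were not tested and are left out of the counts that follow. No member passed the floor through only some of the arrays. The 41 ranged from 7.72 (Psmg3) to 13.34 (Psmb5). Levels of different genes come from different probes and are not compared. The macrophage markers were present (Adgre1 13.2 to 13.5, Cd68 13.4 to 13.8), and the phenotypes carried their markers, with Nos2 at 13.00 in M1 and 6.79 in M2 under vehicle and Arg1 at 6.75 and 12.48. The 8 macrophage markers read were not level between the phenotypes. Their M2 minus M1 differences with vehicle ran from -3.06 (Fcgr1) to 0.56 (Csf1r), with 4 below 0 and 4 above 0. In bulk RNA, fewer cells of a type and less RNA per cell cannot be told apart.

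Most proteasome genes were slightly lower in M2 than in M1 macrophages. The M2 minus M1 difference had a median of -0.26 over the 41 members with vehicle and of -0.20 with IL-1α, against 0.01 and 0.03 over all 10625 genes at the floor. With vehicle, 34 of the 41 members (82.9%) were below 0, against 48.7% of all genes and 51.3% of the brighter genes, which reached the 75th percentile of 9.635 on at least 1 array. With IL-1α the count was again 34, against 46.5% and 45.9%. No member differed by 2-fold in either direction on either pair of arrays. Of the 10489 genes at the floor on at least 1 of the vehicle arrays, 6.83% were at least 2-fold lower and 7.03% higher in M2, and of 10479 genes with IL-1α 6.06% and 8.15%. At 1.5-fold, 6 members (14.6%) were lower in M2 with vehicle (Psma2, Psma5, Psma6, Psmd4, Psmd10 and Psmd11), near the 13.3% of all genes, and 0 were higher, against 14.1%. With IL-1α, Psma5 was lower by that much, against 11.4% of genes, and Psmd6 and Psmg1 were higher, against 16.6%.

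An additive model of phenotype and treatment was fitted with limma across all 10625 genes. The phenotype effect shared by both treatments is set against the departure from additivity, with 1 residual degree of freedom per gene plus 10.05 borrowed across genes. It called 24 of the 41 members (58.5%) lower in M2 and 4 (9.76%) higher at a Benjamini-Hochberg adjusted p under 0.05, while 13 were not called. Over all genes the shares were 29.3% lower and 33.2% higher. Among the brighter genes, 36.2% were lower and 38.4% higher, and of the 35 members tested there 23 were lower and 2 higher. The 24 lower members had a median effect of -0.40 (1.32-fold) and a range from -0.66 to -0.17, with limma adjusted p from 2.32e-06 to 0.0165. These p-values measure no spread between cultures or animals.

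**Figure D1:**
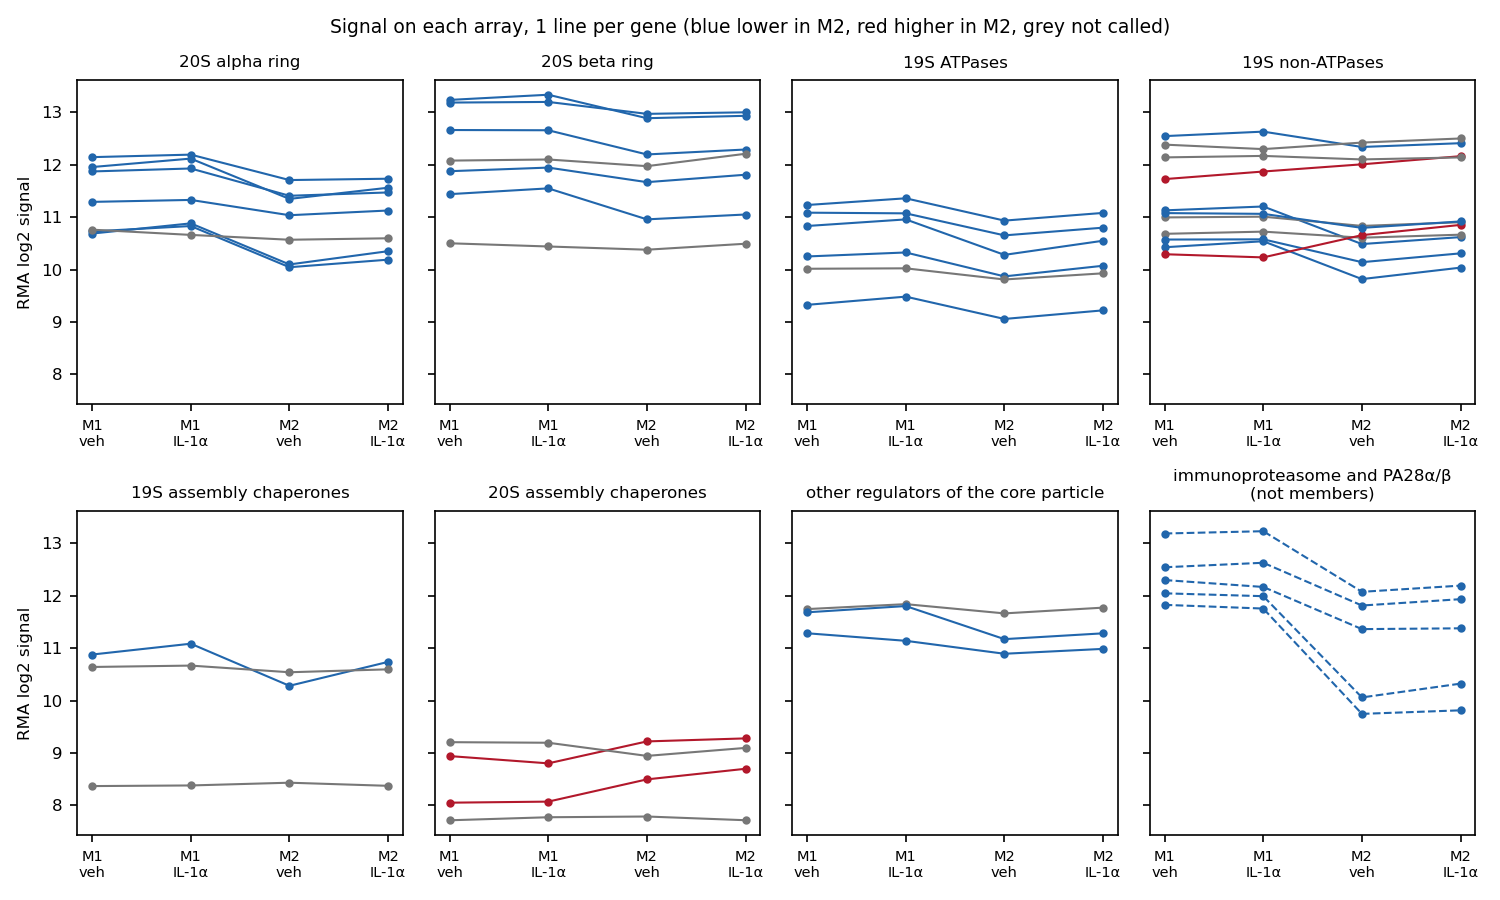
RMA log2 signal (vertical axis) of the 41 members at the floor on each of the 4 arrays (horizontal axis; veh, vehicle), 1 line per gene and 1 panel per role, with 5 immunoproteasome and PA28 genes that are not members in the last panel. Lines only join the values of a gene. Most blue lines step down by less than 1 log2 unit between the M1 and the M2 arrays, whereas Psmb8 and Psmb9 in the last panel step down by about 2 units with vehicle (-1.99 and -2.08).

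In the α ring of the core, of 7 members at the floor, 6 were called lower in M2, 0 higher and 1 was not called, with a median effect of -0.46. Psma5 had the largest effect of any member. It read 10.73 and 10.83 on the M1 arrays with vehicle and IL-1α, and 10.05 and 10.19 on the M2 arrays. Both M1 arrays lay above both M2 arrays, and the limma effect was -0.66 ± 0.07 (SE; 1.58-fold lower in M2, adjusted p = 4.65e-06). Psma6 read 11.96 and 12.12 in M1 and 11.35 and 11.56 in M2 in the same order, an effect of -0.58 ± 0.06. Psma2 read 10.69 and 10.88 against 10.10 and 10.35 (-0.56 ± 0.07). Again the phenotypes did not overlap, which is common here. Both M1 arrays lay above both M2 arrays in 38.3% of all genes and below them in 43.1%. Psma3 (-0.46), Psma1 (-0.45) and Psma4 (-0.23) were also called lower. Psma7 was the exception in the ring: it read 10.76 and 10.66 in M1 and 10.57 and 10.60 in M2, and its effect of -0.13 ± 0.07 was not called (limma adjusted p = 0.124).

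In the β ring, 5 of 7 members were called lower, 0 higher and 2 were not called (median -0.21). The catalytic subunits were split. Psmb7, which carries the trypsin-like site, read 11.44 and 11.55 in M1 and 10.96 and 11.05 in M2 (-0.49 ± 0.06, 1.40-fold lower). Psmb5, which carries the chymotrypsin-like site, read 13.24 and 13.34 against 12.89 and 12.93 (-0.38 ± 0.04). In both genes the M1 arrays lay above the M2 arrays. Psmb6, which carries the caspase-like site, read 12.08 and 12.10 in M1 and 11.97 and 12.21 in M2. Its 4 values overlapped between the phenotypes and the effect was 0.00 ± 0.06 (limma adjusted p = 0.984). With loess centring of the arrays that effect was -0.10 and after a further quantile normalisation -0.045, neither called. Among the structural β subunits, Psmb2 differed most (12.66 on both M1 arrays, 12.20 and 12.29 on the M2 arrays, -0.42 ± 0.05). Psmb3 (-0.21) and Psmb4 (-0.17) had smaller effects that were called, although Psmb4 was not when the variance trend was left out of the fit (limma adjusted p = 0.0767). Psmb1 was not called (-0.04 ± 0.07).

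Immunoproteasome genes, whose products replace these catalytic subunits, were also lower in M2. All 5 of Psmb8, Psmb9, Psmb10 and the PA28 activator genes Psme1 and Psme2 were called lower in M2, by 1.64-fold (Psmb10) to 4.03-fold (Psmb9). Set beside its constitutive counterpart with vehicle, Psmb8 was at -1.99 and Psmb5 at -0.35, Psmb9 at -2.08 and Psmb6 at -0.11, and Psmb10 at -0.73 and Psmb7 at -0.48. No test compares these pairs of genes.

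**Figure D2:**
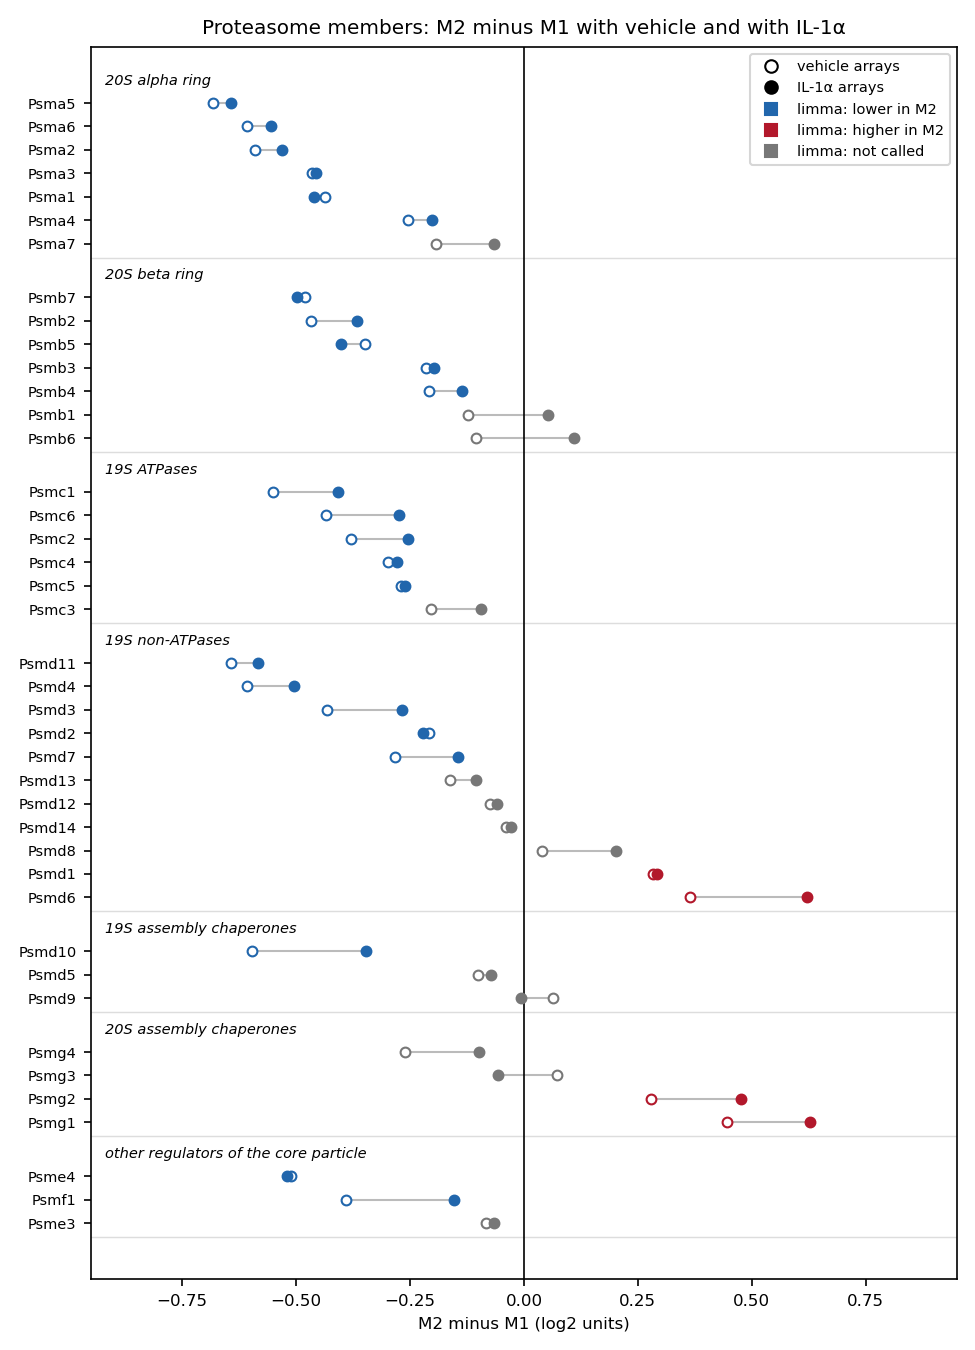
M2 minus M1 difference in log2 units (horizontal axis) for each of the 41 members at the floor, grouped by role; open circles are the vehicle arrays, filled circles the IL-1α arrays, and colour gives the limma call for the difference common to both. There are no error bars because each group has 1 array. Most members lie left of 0 with both treatments, and Psmd1, Psmd6, Psmd8, Psmg1 and Psmg2 lie right of 0 with both.

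The ATPase ring of the 19S particle unfolds substrates and threads them into the core. Of its 6 members, 5 were called lower in M2, 0 higher and 1 was not called (median -0.30). Psmc1 read 10.83 and 10.96 in M1 and 10.28 and 10.55 in M2 (-0.48 ± 0.07, 1.39-fold). Its phenotypes did not overlap. Psmc6 (-0.35), Psmc2 (-0.32), Psmc4 (-0.29) and Psmc5 (-0.27) followed, and Psmc3 was the ATPase not called. It read 10.02 on both M1 arrays and 9.81 and 9.93 on the M2 arrays (-0.15 ± 0.07, limma adjusted p = 0.104).

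The non-ATPase subunits of the 19S particle were mixed, with 5 of 11 called lower, 2 higher and 4 not called (median -0.13). The lowest was Psmd11, a scaffold subunit that bridges the 19S particle to the core. It read 11.13 and 11.20 in M1 and 10.49 and 10.62 in M2, an effect of -0.61 ± 0.06 (1.53-fold lower, limma adjusted p = 5.32e-06). Psmd4, a ubiquitin receptor, read 10.43 and 10.54 against 9.82 and 10.04 (-0.56 ± 0.07, 1.47-fold). Neither gene overlapped between the phenotypes. Psmd3 (-0.35), Psmd2 (-0.21) and Psmd7 (-0.21) were also called lower.

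Psmd6 and Psmd1 went the other way. Psmd6, another scaffold subunit of the lid, read 10.29 and 10.23 in M1 and 10.66 and 10.85 in M2, an effect of 0.49 ± 0.08 (1.41-fold higher in M2, limma adjusted p = 0.000162). Psmd1, a large scaffold subunit of the base, read 11.73 and 11.87 against 12.01 and 12.16 (0.29 ± 0.05, 1.22-fold). In both genes the M1 arrays lay below the M2 arrays. The deubiquitinase Psmd14, which removes ubiquitin chains at the entrance, was close to level (12.14 and 12.17 in M1, 12.10 and 12.14 in M2, -0.03 ± 0.05), and Psmd12, Psmd13 and Psmd8 were not called either, at -0.07, -0.13 and 0.12. Psmd8 read 12.38 and 12.30 in M1 and 12.42 and 12.50 in M2, so its M1 arrays also lay below its M2 arrays. Loess centring called Psmd13 (-0.19) and Psmd14 (-0.14) lower.

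Assembly chaperones were read by the particle they build. Among those of the 19S base, Psmd10 (gankyrin) was called lower. It read 10.88 and 11.08 in M1 and 10.28 and 10.74 in M2, an effect of -0.47 ± 0.07 (1.39-fold). Psmd5 (-0.09) and Psmd9 (0.03) were not called. Psmd9 read 8.37 and 8.38 in M1 and 8.43 and 8.37 in M2, so the phenotypes overlapped.

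Of the 4 chaperones of the 20S core, Psmg1 and Psmg2, which act as a pair in α ring assembly, were both called higher in M2. Psmg1 read 8.05 and 8.07 in M1 and 8.50 and 8.70 in M2 (0.54 ± 0.10, 1.45-fold, limma adjusted p = 0.000483), the largest upward effect of any member. Psmg2 read 8.94 and 8.80 against 9.22 and 9.28 (0.38 ± 0.09). Neither overlapped between the phenotypes. Psmg3 and Psmg4, which form another pair, were not called (0.01 ± 0.10 and -0.18 ± 0.09). Psmg3 read 7.72 and 7.77 in M1 and 7.79 and 7.72 in M2. The signals of these 4 genes lay between 7.72 and 9.28, not far above the floor.

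Of the other regulators that bind the core, Psme4, the large activator PA200, was called lower (11.68 and 11.80 in M1, 11.17 and 11.28 in M2, -0.52 ± 0.06, 1.43-fold), and so was Psmf1, the regulator PI31 (-0.27 ± 0.07). Psme3, the nuclear activator PA28γ, read 11.75 and 11.84 in M1 and 11.66 and 11.77 in M2. It was not called (-0.07 ± 0.05), and was called lower at -0.17 under loess centring. Psmb4 apart, no member lost its call under an alternative in which it was tested, and loess centring added calls for Psma7, Psmd13, Psmd14 and Psme3, which gave 28 lower members.

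Both M1 arrays lay above both M2 arrays in 31 of the 41 members, where 38.3% of all genes did so, and below them in 5, where 43.1% did so. In the remaining 5 members (Psmb1, Psmb6, Psmd9, Psme3 and Psmg3) the phenotypes overlapped. In 37 members (90.2%) the difference had the same sign with vehicle and with IL-1α, as in 86.4% of all genes.

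**Figure D3:**
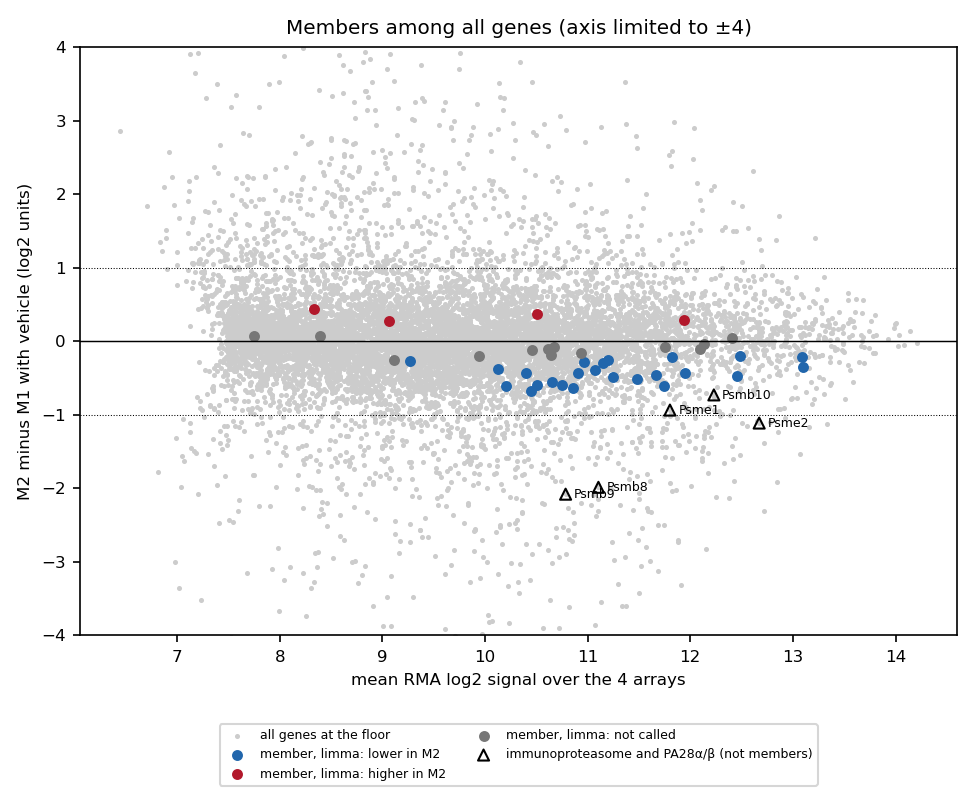
M2 minus M1 difference with vehicle in log2 units (vertical axis, limited to 4 on either side; 88 genes lie beyond) against the mean RMA log2 signal over the 4 arrays (horizontal axis). Grey points are all genes at the floor, coloured points the 41 members by limma call, and triangles 5 genes that are not members; dotted lines mark 2-fold. The members lie within the dotted lines and mostly just below 0, inside the spread of all genes.

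Genes that work with the proteasome but lie outside the module showed no common direction. Of 8 measured partners, 3 were called lower in M2, 3 higher and 2 were not called, with medians of -0.01 with vehicle and 0.12 with IL-1α. Over all genes the shares were 29.3% lower and 33.2% higher. Pomp, the maturation factor of the 20S core, was lower (-0.37 ± 0.07), as were Ecpas and Txnl1. Usp14, a deubiquitinase docked on the 19S particle, was higher (0.43 ± 0.06), as were the ligase Ube3c and Akirin2, which brings proteasomes into the nucleus. Sem1, a small 19S subunit outside the naming scheme, was not called (0.11 ± 0.07).

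Among upstream genes, the ubiquitin-activating enzyme Uba6 (0.49 ± 0.07), the shuttle factor Ubqln2 (0.70 ± 0.08) and the unfoldase Vcp (0.27 ± 0.05) were called higher in M2, whereas Nploc4 and Ufd1, cofactors of Vcp, were called lower (-0.43 and -0.19) together with Rad23b and Ubqln4. In all, 3 of 8 measured genes of ubiquitin activation and delivery were higher and 4 lower, against 33.2% and 29.3% of all genes. Nfe2l1, the transcription factor known to drive proteasome genes when proteasome activity falls short, read 11.83 and 11.94 in M1 and 11.36 and 11.45 in M2 (-0.48 ± 0.06, 1.39-fold lower, limma adjusted p = 1.42e-05). Its relative Nfe2l2, known for antioxidant genes, was higher in M2 (0.37 ± 0.06), and Ngly1, which processes Nfe2l1, was lower (-0.21 ± 0.08).

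Other differences between the phenotypes stood beside these. Of 11 measured cell cycle genes, 6 reached the floor on all 4 arrays, and all 6 were called higher in M2 by limma, from 0.51 (Pcna) to 1.73 (Mki67). Another 4 (Ccna2, Ccnb2, Bub1 and Plk1) reached it only on the M2 arrays, and Top2a on none. Of 7 neutrophil markers, 4 (S100a8, S100a9, Ngp and Mpo) reached the floor on the M2 arrays only, so their direction was set by that filter and is not counted. The mean log2 signal of all 7 was 6.86 and 6.92 on the M1 arrays and 7.69 and 7.52 on the M2 arrays, and Ly6g, Camp and Elane were under the floor throughout. The 6 dendritic cell markers had means of 7.63 and 7.55 in M1 and 6.72 and 6.66 in M2. With vehicle, Clec9a (-4.35) and Xcr1 (-1.96) were far lower in M2, Zbtb46 (0.48), Siglech (0.22) and Itgae (0.22) were above 0, and the median of the 6 was 0.07. Clec9a and Xcr1 reached the floor on the M1 arrays only and Zbtb46 on the M2 arrays only. Their direction was therefore also set by that filter and is not counted. Flt3, Siglech and Itgae were under the floor on all arrays. Of 8 measured housekeeping and ribosomal genes, 5 were called higher in M2 and 1 lower (median 0.11 with vehicle), against 33.2% and 29.3% of all genes. The part of these differences in the proteasome result was not tested.

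Promoter sequence was examined because most called members were lower in M2 and Nfe2l1 binds a known element. RefSeq promoter windows on GRCm38.p6, 250 bases before to 50 after a start, were found for 35 members (37 windows). The antioxidant response element core TGACNNNGC, searched on both strands with N for any base, was present in 6 of these windows (16.2%), against 12.4% of all 32851 windows. The sites of 5 members are shown with their flanks, because these include members called lower in M2 and members not called. Capitals mark the element, on either strand, and each run is printed in the direction of its gene. The Psme4 site overlapped the start and is not shown.
Psmb5, GRCm38.p6 chr14:54618024-54618052, minus strand: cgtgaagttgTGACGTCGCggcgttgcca
Psmc6, GRCm38.p6 chr14:45329587-45329615, plus strand: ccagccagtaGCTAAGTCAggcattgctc
Psmb6, GRCm38.p6 chr11:70525328-70525356, plus strand: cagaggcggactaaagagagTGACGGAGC
Psmd12, GRCm38.p6 chr11:107479278-107479306, plus strand: tctGCTGTGTCAcatttgcccccctcaga
Psmd9, GRCm38.p6 chr5:123228149-123228177, plus strand: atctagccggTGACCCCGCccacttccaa

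Of the 6 members with the element, Psmb5, Psmc6 and Psme4 were called lower in M2 and Psmb6, Psmd12 and Psmd9 were not called. The element was in 13.6% of 22 windows of members called lower and in 27.3% of 11 windows of members not called. It was in 0 of 3 windows of members called higher. The median effect of the 6 members was -0.21, and that of the 28 tested members with a window but no match was -0.22. The CCAAT box, searched in the same way, was in 13 member windows (35.1%) against 37.4% of all. No match to the element overlapped a CCAAT match in the member windows, whereas a pair of CCAAT matches on opposite strands overlapped in the Psmd14 window. A match to these letters is a description of the window and not a binding site. A link between Nfe2l1 and the levels of the members was not tested.

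IL-1α was then compared with vehicle within each phenotype. In M1, the differences of the 41 members ranged from -0.14 (Psmf1) to 0.21 (Psmd10), with a median of 0.04, and 31 (75.6%) were above 0 against 49.2% of all genes. In M2 they ranged from -0.07 (Psmg3) to 0.46 (Psmd10), with a median of 0.11 against 0.05 over all genes, and 39 (95.1%) were above 0 against 68.7% of all genes and 75% of the brighter ones. After a further quantile normalisation the M2 median was 0.06 over the members and 0.01 over all genes. The share above 0 was 47.8% for the brighter genes in M1. No member reached 1.5-fold in either phenotype, where 0.02% of genes in M1 were that much higher and 0.04% lower, and in M2 0.875% and 0%. The differences of all genes had a standard deviation of 0.11 in M1 and of 0.18 in M2.

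**Figure D4:**
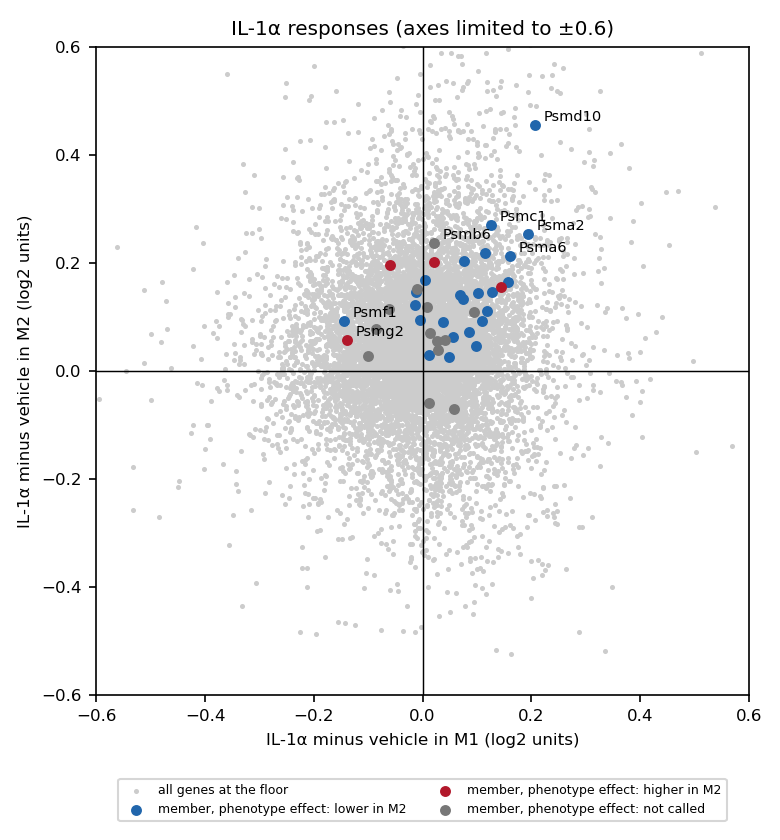
IL-1α minus vehicle in log2 units in M1 (horizontal axis) and M2 (vertical axis), both axes limited to 0.6 on either side (100 genes lie beyond); grey points are all genes at the floor and coloured points the 41 members, by the limma call for phenotype. There are no error bars because each group has 1 array. The members lie mostly above 0 on both axes, with Psmd10 farthest out at 0.21 and 0.46.

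Psmd10 had the largest difference with IL-1α in both phenotypes. It read 10.88 with vehicle and 11.08 with IL-1α in M1, and 10.28 and 10.74 in M2, a 1.37-fold difference in M2. The next in M2 were Psmc1 (10.28 and 10.55), Psma2 (10.10 and 10.35) and Psmb6 (11.97 and 12.21). In M1, Psma2 (10.69 and 10.88) and Psma6 (11.96 and 12.12) followed Psmd10. These are single differences between arrays, with no replicate check.

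In the limma additive fit, 0 of the 41 members passed for the IL-1α effect shared by M1 and M2, as did 0 of all 10625 genes (0% in each direction). At an unadjusted p under 0.05 there were 7 members (17.1%), against 6.08% of all genes, counted in either direction. The largest were Psmd10 (0.33 ± 0.07), Psma2 (0.22 ± 0.07), Psmc1 (0.20 ± 0.07) and Psma6 (0.19 ± 0.06). Psmd4 (0.17 ± 0.07), Psmd1 (0.15 ± 0.05) and Psmc4 (0.14 ± 0.06) followed. All 7 estimates were above 0, where the differences of all genes also leaned upward in M2 (68.7% above 0) but not in M1 (49.2%). The lowest adjusted p among members was 0.473, for Psmd10. By role, the median difference in M2 was 0.16 for the 19S ATPases, 0.12 for the 19S non-ATPases, 0.11 for the 20S chaperones and for the other regulators, 0.09 for each core ring and 0.06 for the 19S chaperones.

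Subtracting the M1 response from the M2 response gave a median of 0.06 over the members, the same as over all genes (0.06). It was above 0 in 34 of 41 members (82.9%), against 66.1% of all genes and 72.5% of the brighter ones. It was largest for Psmd6 (0.26), Psmd10 (0.25), Psmf1 (0.24) and Psmb6 (0.21), and lowest for Psmg3 (-0.13). No member reached 1.5-fold, where 1.02% of genes did so upward and 0.141% downward. After a further quantile normalisation the member median was 0.00. The 4 arrays leave no degree of freedom to test this contrast.

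The phenotype difference was also set side by side for the treatments. Of the 24 members called lower in M2, 19 differed by less with IL-1α than with vehicle. Among them were Psmd10 (-0.35 against -0.60) and Psmd3 (-0.27 against -0.43). All 4 members called higher differed by more, from Psmd6 (0.62 against 0.36) down to Psmd1, which hardly changed (0.29 against 0.28). Either change is a difference of responses above 0, which 66.1% of all genes and 72.5% of the brighter ones had. After a further quantile normalisation the member median of that difference was 0.00. All genes had a median response of 0.05 in M2 and of -0.00 in M1, and the part of this shift was not tested.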

How the data were processed

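RNA of 4 macrophage samples was measured on 1-colour Affymetrix arrays, 1 array per group. The submitters' processing notes name RMA and Affymetrix Expression Console, with which the authors made the deposited log2 signal of each probe set. No source names the log base, which was read from the values, and versions and settings are not given in the sources used here. In general RMA quantile-normalises probes across arrays, so a global difference in RNA is not readable from such values. Array medians of the deposited rows still ran from 7.317 to 7.379.

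Of 35556 rows, 21789 carry 1 gene in GEO's platform annotation, 1621 several and 12146 none; only the first were used. All 43 members had RefSeq symbols equal to the platform's by Entrez number. Probe sets were averaged per gene. Of the members, 5 had more than 1 probe set (Psma3, Psma5, Psmb3, Psmc1, Psmd2), whose M2 minus M1 differences spread by at most 0.10.

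Differences are between single arrays. limma 3.58.1 (R 4.3.3; lmFit, eBayes with a trend) fitted phenotype and treatment additively, with Benjamini-Hochberg adjustment over 10625 genes, and was tested on simulated data. The simulation gave all genes and arrays independent noise of the same spread. It therefore does not show how the p-values behave with the departures from additivity in these data. Members, lists, motifs and tests were chosen with earlier results of these data known. Any member or list gene could be named; in each role group the largest and smallest differences were to be given in full, with the 5 largest in each direction over all members. Alternatives changed the fold threshold (1.5), the floor (none or the 75th percentile), the scaling (loess centring or another quantile normalisation), the probe set (the brightest in place of the mean) and eBayes (without the trend, or robust). The number of arrays limits the precision.

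Marker lists of lymphocytes, mast cells, erythroid and stromal cells were also read: 1 of 6, 0 of 4, 0 of 2 and 3 of 5 measured genes reached the floor.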

Additional observations from a re-analysis of the deposited data

Results flagged for a closer look

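In 12 of the 41 members at the floor, the IL-1α difference had one sign in M1 and the opposite sign in M2, on 1 array each; the difference was not tested. Of all genes, 49% did so. In 10 of the 12 the value was below 0 in M1 and above 0 in M2. The M2 minus M1 difference of these responses was 0.26 for Psmd6, 0.24 for Psmf1, 0.20 for Psmg2, 0.18 for Psmb1, 0.16 for each of Psmc6, Psmd8 and Psmg4, 0.14 for Psmd7, 0.13 for Psma7 and 0.10 for Psmb2. In the other 2 the signs were turned, with -0.07 for Psmd9 and -0.13 for Psmg3. Differences of this size are common here, since those of all genes had a standard deviation of 0.20.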

How the results depend on the processing

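The count of members called lower in M2 by limma was 24 in the fit as reported and ran from 23 to 28 under the alternatives. The count called higher stayed at 4 except with the floor at the 75th percentile, where it was 2, because Psmg1 and Psmg2 do not reach that floor and were not tested. The IL-1α effect called 0 members under each of these alternatives. At a 1.5-fold threshold, 6 members were lower in M2 with vehicle (0 at 2-fold), and with IL-1α 1 was lower and 2 were higher (0 at 2-fold). The effect of Psmb6 turned from 0.00 to -0.10 with loess centring and to -0.045 after a further quantile normalisation, uncalled in each; the cause was not tested. The member medians of each comparison moved by less than 0.115, the standard deviation over genes of the M1 pair, under every alternative run. M2 minus M1 ran from -0.32 to -0.24 with vehicle and from -0.26 to -0.15 with IL-1α. The response ran from 0.04 to 0.05 in M1 and from 0.06 to 0.11 in M2, and the difference of responses from 0.00 to 0.06. These response medians are themselves under 0.115, so that limit cannot show that they were stable. No replicate could be left out. No paired analysis was possible because each group holds 1 array. Signal over background limits Psma8 and Psmb11, which lay under the floor.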

Other observations

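The IL-1α differences of the members in M1 and in M2, which share no array, correlated across the 41 genes with r = 0.45 (Pearson) and rho = 0.38 (Spearman), and an r of 0.35 without Psmd10; across all 10625 genes r was 0.09. Genes are not independent replicates and all values passed through the same normalisation, so this is a description with no test. In 29 members (70.7%) the difference was above 0 in both phenotypes, against 34.4% of all genes. In the other 12 the signs were opposite, against 49% of all genes, so that in 0 members it was below 0 in both. The M2 minus M1 differences with vehicle and with IL-1α had an r of 0.95 across the members and of 0.98 across all genes.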
